A study of Homo sapiens with 2 samples.

Results

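ATP-binding cassette (ABC) transporter genes were examined in Hep3B, a human liver cancer line in wide use, after knockout of SOX4, a transcription factor of the SOX family. The members were all genes whose only symbol in the platform annotation is ABC, a subfamily letter from A to G and a number, apart from a pair of genes and the transcript clusters of chromosome 21, which were not analysed here. This gave 39 genes of 33616 with a single symbol. One group was the Hep3B SOX4-/- line, made with CRISPR/Cas9 and kept in puromycin, and the other was the parental Hep3B line, wildtype for SOX4 and without puromycin. Both lines were grown in the same base medium with serum, and total RNA was hybridised to an Affymetrix whole-transcript array, 1 array for each line. The labels do not say whether the knockout line was 1 clone. With 1 array per line no test, error or p-value is possible, precision is limited by there being only 2 arrays, and genotype, puromycin, selection and the array itself cannot be told apart. Every "higher" or "lower" below describes these 2 arrays, and a 2-fold difference, 1 on the log2 scale, served as a fixed rule of size.

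ABC proteins use the binding and hydrolysis of ATP to move substrates across membranes, and most are built from a pair of membrane-spanning domains and a pair of nucleotide-binding domains, in one chain or as dimers of half-transporters. In hepatocytes they carry conjugated drugs and bile constituents out of the cell, load cholesterol onto apolipoprotein particles, secrete phospholipid and sterol into bile, and serve mitochondria, peroxisomes and lysosomes. The ABCE and ABCF proteins have the nucleotide-binding domains alone and act on ribosomes rather than as transporters.

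Values are the log2 values deposited by the authors, made with RMA, a method that removes background, brings the arrays to a common scale and combines the probes of each transcript cluster into a single value. Differences are knockout minus parental. Over 135750 transcript clusters the knockout array had a median of 3.80 and the parental array one of 3.83. Their highest values, 19.80 for the knockout and 19.82 for the parental line, exceed what a scanner of 16 bits can give on a log2 scale, so folds are those of the deposited scale. SOX4 itself stood at 12.44 in SOX4-/- cells and 13.14 in parental cells, a difference of -0.70, a check that cannot see an edit in a transcript that is still made. All 10 hepatocyte markers measured lay above the level filter in both lines, with ALB, which codes for albumin, at 18.84 in SOX4-/- cells and 18.87 in parental cells. Of the 10, 4 were higher and 6 lower in SOX4-/- cells, and APOA1, at -1.17, was lower by more than 2-fold. The filter was passed by 0 of 5 endothelial, 4 of 6 fibroblast and stellate, 2 of 4 leukocyte and 5 of 5 biliary markers measured. Among markers of other cell types, LUM of fibroblasts stood at 12.69 in SOX4-/- cells and 7.90 in parental cells, SPP1 of bile duct cells at 7.77 in SOX4-/- cells and 5.25 in parental cells, and LYZ of leukocytes at 11.87 in SOX4-/- cells and 9.62 in parental cells, and each was the only marker of its list past 2-fold, among 4, 5 and 2 that passed the filter. Of the fibroblast and stellate markers above the filter, 1, LUM, was higher in SOX4-/- cells and 3 were lower. Of the biliary ones 4 were higher and 1 lower, and of the leukocyte ones 2 were higher and 0 lower. The part of these markers in the ABC values was not tested.

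Of the 39 ABC genes, 26 passed the level filter, meaning that the larger of a gene's 2 values lay above 4.78, which is the median of those larger values. Of these 26, 7 (26.9%) were higher by 2-fold or more in SOX4-/- cells and 0 lower by 2-fold or more. Over all 16808 genes above the filter, 6.50% were higher by 2-fold or more and 3.64% lower by 2-fold or more, and over the 11115 protein-coding ones 8.30% and 4.30%. The 7 genes were ABCC3, ABCA3, ABCB5, ABCB6, ABCB1, ABCA2 and ABCA7, with differences from 3.41 to 1.01. Of these, 3 (ABCA3, ABCB5 and ABCA2) passed the filter only through their knockout value, so a large difference was built into their passing, and their parental signals were not shown to exceed background. Where both arrays had to exceed the filter, 4 of 23 ABC genes (17.4%) were higher by 2-fold or more, and 0 lower, against 5.98% and 3.19% of all genes held to the same rule. The share among protein-coding genes was not counted under that rule. The median difference was 0.18 over all 39 ABC genes and 0.38 over the 26 above the filter. It was 0.00 over all genes and 0.04 over all genes above the filter, and 0.01 and 0.06 over the protein-coding ones.

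**Figure D1:**
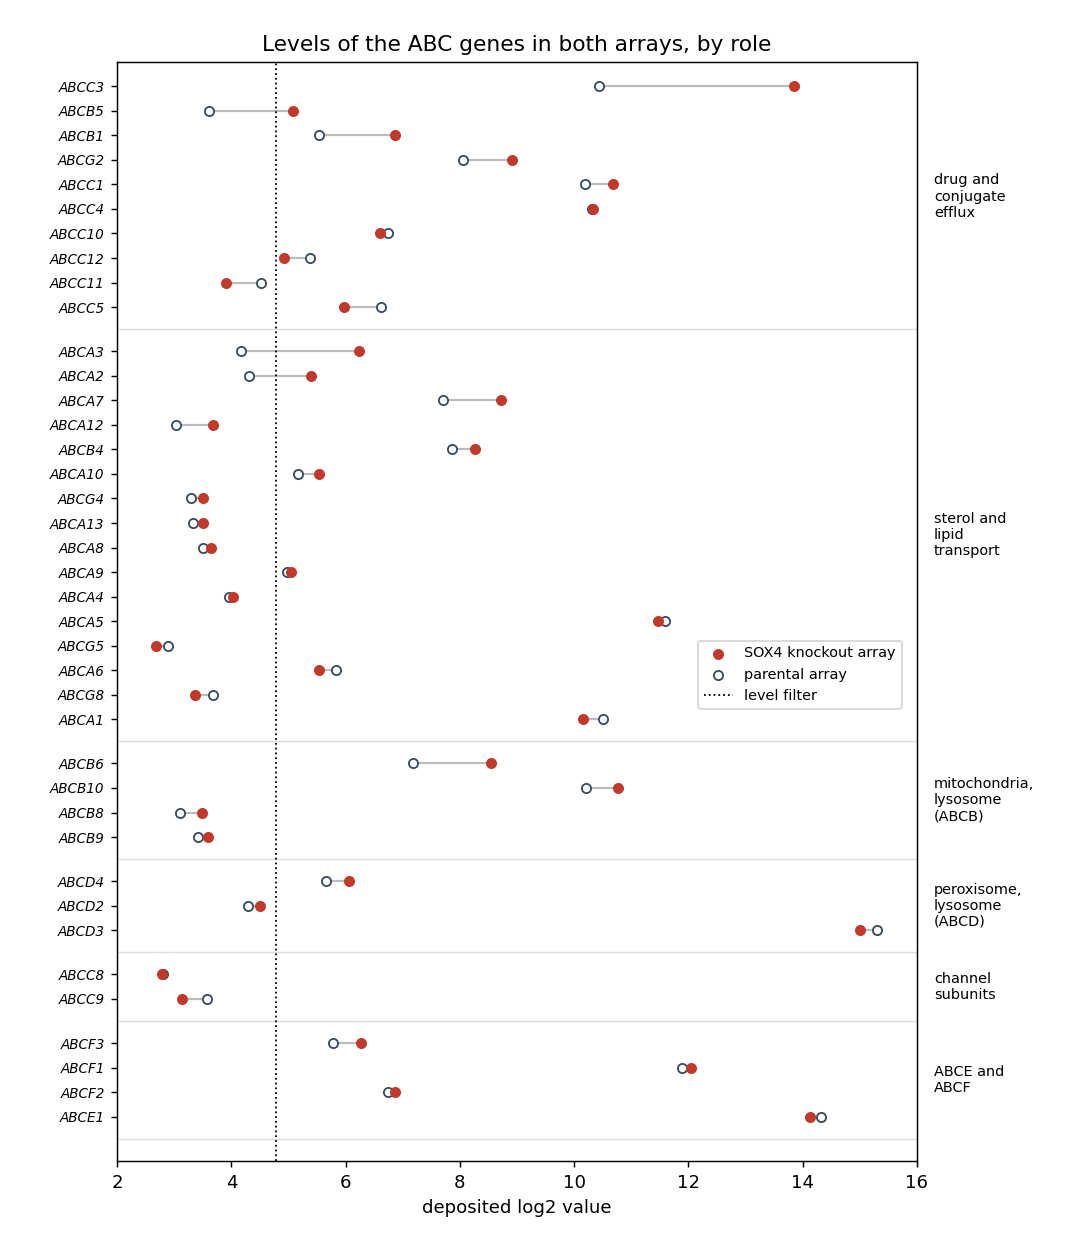
Deposited log2 value of each of the 39 ABC genes (x axis) in the SOX4 knockout array (filled red) and the parental array (open), grouped by role, with the level filter of 4.78 as a dotted line. A grey line joins the 2 values of a gene; the longest is that of ABCC3, at 13.85 in SOX4-/- cells and 10.44 in parental cells. Each gene has its own probes, so points are to be compared within a gene.

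To show what lies before the genes that led, the 250 bases before the RefSeq start of 3 of them are given 5′ to 3′ on the gene's strand, from RefSeq build GRCh38.p14. Capitals mark matches to the core of the antioxidant response element, TGANNNNGC, on either strand, the element bound by NRF2 with small MAF proteins. ABCA3, whose parental value lies under the filter, and ABCB6 are shown as the genes with the largest differences in the promoter table. ABCB1 is shown as a gene of similar difference whose window, before the only start searched, has no match. Whether a window before another start of ABCB1 holds the element was not examined.
ABCA3, chr16:2340729-2340978, minus strand: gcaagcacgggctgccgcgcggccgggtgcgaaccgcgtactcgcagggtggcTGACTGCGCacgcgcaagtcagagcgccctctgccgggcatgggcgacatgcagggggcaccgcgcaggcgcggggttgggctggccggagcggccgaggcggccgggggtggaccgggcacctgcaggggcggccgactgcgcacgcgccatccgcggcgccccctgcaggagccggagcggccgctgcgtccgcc
ABCB6, chr2:219218959-219219208, minus strand: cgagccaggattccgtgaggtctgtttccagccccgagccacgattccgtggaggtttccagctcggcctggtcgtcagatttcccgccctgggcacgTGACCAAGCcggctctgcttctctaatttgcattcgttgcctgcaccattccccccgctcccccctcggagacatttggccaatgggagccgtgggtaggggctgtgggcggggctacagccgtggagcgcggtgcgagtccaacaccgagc
ABCB1, chr7:87713296-87713545, minus strand: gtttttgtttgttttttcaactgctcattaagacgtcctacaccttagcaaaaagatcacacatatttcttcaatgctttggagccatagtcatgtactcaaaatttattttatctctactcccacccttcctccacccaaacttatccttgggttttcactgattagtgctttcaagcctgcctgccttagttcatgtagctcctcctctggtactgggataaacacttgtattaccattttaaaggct

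The ABCA3 window holds 1 match that begins 197 bases before the start and has a GC content of 79.2%. In the ABCB6 window, of 64.4% GC, the match begins 152 bases before the start. The ABCB1 window, of 39.2% GC, holds none. For each gene 1 window before 1 RefSeq start was searched, and windows before other starts were not. The promoter table matched 32 of the 39 ABC genes by symbol, among them 5 of the 7 that were higher by 2-fold or more, and ABCC3 and ABCB5 were not matched. The antioxidant element core stood in 4 of those 5 windows, including those of ABCA2 and ABCA7, in 10 of the 32 ABC windows (31.3%) and in 35.2% of all 35116 promoter windows of that length. Of those 4 genes, ABCA3 and ABCA2 passed the level filter only through their knockout values. ABCA7 fell short of 2-fold after quantile normalization and after removal of the level trend. The SOX-type letters ACAAAG, searched on both strands, stood in 0 of the 5, in 5 of the 32 (15.6%) and in 13.7% of all windows. These matches describe letters only, a core this short occurs in a large share of all promoters, and the motifs were chosen with the values known.

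Exporters of drugs and conjugates held the largest difference. ABCC3, which exports glucuronide and glutathione conjugates and bile acids across the basolateral membrane of hepatocytes, stood at 13.85 in SOX4-/- cells and 10.44 in parental cells. The difference of 3.41, or 10.6-fold, ranked 65th highest among the 16808 genes above the filter, and both values lay far above it. ABCB1, the P-glycoprotein, an exporter of many unrelated drugs that counts puromycin among its known substrates, stood at 6.87 in SOX4-/- cells and 5.54 in parental cells. That is a difference of 1.33, or 2.52-fold, in a pair of lines of which only the knockout was kept in puromycin. ABCB5, a relative of ABCB1 studied in melanoma, stood at 5.08 in SOX4-/- cells against 3.61 in parental cells, where it lay under the filter. ABCG2, a half-transporter that exports drugs and urate, came next with 8.92 in SOX4-/- cells and 8.05 in parental cells. Its difference of 0.87, or 1.83-fold, lay just short of the rule of size, on the other side of which ABCA7 stood with 1.01.

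The remaining exporters differed less and in both directions. ABCC1, which exports glutathione conjugates such as leukotriene C4, stood at 10.69 in SOX4-/- cells and 10.19 in parental cells, 0.50 apart. A second transcript cluster of ABCC1 stood at 4.70 in SOX4-/- cells and 4.12 in parental cells, 0.58 apart, so its clusters pointed the same way. ABCC4, an exporter of cyclic nucleotides and prostanoids, was nearly equal, with 10.33 in SOX4-/- cells and 10.31 in parental cells. ABCC5, another exporter of cyclic nucleotides, was the lowest member in difference, at 5.98 in SOX4-/- cells and 6.63 in parental cells, or -0.65. ABCC10, related to these exporters, stood at -0.13. ABCC11 and ABCC12, neighbours on chromosome 16, were both lower in SOX4-/- cells. ABCC12 had 4.91 in SOX4-/- cells and 5.38 in parental cells, and ABCC11, at 3.90 in SOX4-/- cells and 4.52 in parental cells, did not pass the filter. Of 9 genes of this role above the filter, 3 were higher by 2-fold or more and none lower, against 6.50% and 3.64% of all genes above the filter, and 1 of the 3, ABCB5, passed through its knockout value alone. The median difference was 0.50.

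**Figure D2:**
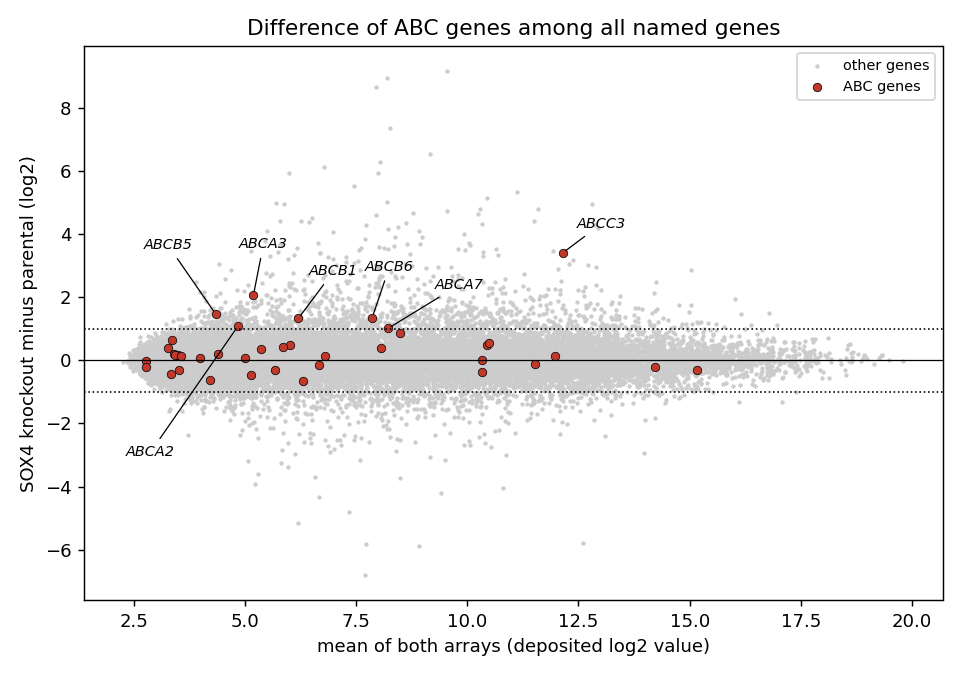
Difference between the SOX4 knockout and parental arrays (y axis, log2) against the mean of both arrays (x axis, deposited log2 value) for all 33616 genes (grey) and the 39 ABC genes (red). Dotted lines mark 2-fold; 7 labelled ABC genes lie above the upper line, led by ABCC3 at 3.41, and 0 lie below the lower line.

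Of the 9 transporters of sterols and phospholipids above the filter, 3 were higher by 2-fold or more and 0 lower. Over all genes above the filter the shares were 6.50% and 3.64%. ABCA1 and ABCB4 were not among the 3. ABCA3, which fills the lamellar bodies of lung alveolar cells with surfactant lipid, stood at 6.23 in SOX4-/- cells and 4.16 in parental cells. The difference of 2.07 rests on a parental signal under the filter, as does that of ABCA2. ABCA2, an endolysosomal transporter best known from brain, stood at 5.39 in SOX4-/- cells and 4.30 in parental cells, 1.09 apart. ABCA7, a phospholipid exporter close to ABCA1, stood at 8.73 in SOX4-/- cells and 7.71 in parental cells, a difference of 1.01 that was 0.99 after quantile normalization and 0.96 after removal of the level trend, both short of 2-fold. Of these genes only ABCA7 had a parental value above the filter.

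The transporters that load or secrete cholesterol and phospholipid in liver showed smaller differences. ABCA1, which loads cholesterol and phospholipid onto apolipoprotein A-I, stood at 10.15 in SOX4-/- cells and 10.51 in parental cells, or -0.35. ABCB4, which moves phosphatidylcholine into bile and lies next to ABCB1 on chromosome 7, stood at 8.26 in SOX4-/- cells and 7.86 in parental cells, 0.40 apart. Both genes were above the filter in each line, with differences on opposite sides of zero. ABCG5 and ABCG8, neighbours on chromosome 2 whose proteins form the sterol exporter of bile and gut, lay under the filter in both lines. ABCG5 stood at 2.68 in SOX4-/- cells and 2.89 in parental cells, and ABCG8 at 3.36 in SOX4-/- cells and 3.67 in parental cells. ABCG4, a sterol exporter of neural cells, lay under the filter as well, with 3.51 in SOX4-/- cells and 3.30 in parental cells.

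The ABCA genes that stand in a row on chromosome 17 differed little. ABCA5, a lysosomal member of this row, stood at 11.48 in SOX4-/- cells and 11.59 in parental cells, ABCA6 differed by -0.29, ABCA9 by 0.08 and ABCA10 by 0.37. ABCA8 lay under the filter with a difference of 0.14. None of the 5 was near 2-fold apart. A further 3 genes known from other tissues lay under the filter in both lines: ABCA12 of skin, with 3.68 in SOX4-/- cells and 3.03 in parental cells, ABCA4 of the retina, with 4.02 in SOX4-/- cells and 3.96 in parental cells, and ABCA13, with 3.51 in SOX4-/- cells and 3.33 in parental cells. Of the 16 genes of this role, 9 passed the filter, and their median difference was 0.37.

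Among the organelle transporters of the ABCB and ABCD subfamilies, ABCB6 stood apart. ABCB6, a half-transporter of the outer mitochondrial membrane and of lysosomes linked to porphyrins, stood at 8.54 in SOX4-/- cells and 7.19 in parental cells, a difference of 1.35, or 2.55-fold. ABCB10, of the inner mitochondrial membrane and linked to heme synthesis, stood at 10.77 in SOX4-/- cells and 10.20 in parental cells, 0.57 apart. Its pseudogenes on the array, ABCB10P1, ABCB10P3 and ABCB10P4, differed by 0.14, 0.00 and 0.32, and probes may share signal with them. ABCB8, also mitochondrial, and ABCB9, a lysosomal peptide transporter, lay under the filter with differences of 0.38 and 0.18. All 4 members of this group were thus above zero. So were all 7 genes of subfamily B analysed here, against 3 of the 9 of subfamily C analysed here. These counts cover the members only, not every gene of either subfamily. In subfamily C the signs of ABCC4, ABCC8 and ABCC9 turned under some alternatives of scaling or cluster. Over all 33616 genes, 16529 were above zero.

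The ABCD transporters showed no 2-fold difference. ABCD3, which brings branched fatty acids and bile acid precursors into peroxisomes, stood at 15.01 in SOX4-/- cells and 15.31 in parental cells, or -0.30. The 2 other transcript clusters of ABCD3 stood at -0.12 and -0.38, in the same direction. ABCD4, which acts in the export of cobalamin from lysosomes, stood at 6.06 in SOX4-/- cells and 5.65 in parental cells. ABCD2, a peroxisomal carrier of very long-chain fatty acids, lay under the filter in both arrays, with differences of 0.20 and 0.46 in its clusters.

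The ABC proteins that do not transport were close in both lines. ABCE1, which splits ribosomes after termination, stood at 14.13 in SOX4-/- cells and 14.32 in parental cells. ABCF1, which acts in translation initiation, stood at 12.04 in SOX4-/- cells and 11.89 in parental cells, and ABCF2 at 6.87 in SOX4-/- cells and 6.74 in parental cells. ABCF3 was the most different of the 4, at 6.26 in SOX4-/- cells and 5.78 in parental cells, 0.49 apart. Their median difference of 0.14 was the smallest of the roles with 4 or more genes above the filter.

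The channel subunits ABCC8 and ABCC9, the sulfonylurea receptors of potassium channels gated by ATP, lay under the filter in both lines. ABCC8 stood at 2.78 in SOX4-/- cells and 2.79 in parental cells. ABCC9 had a cluster at 3.13 in SOX4-/- cells and 3.57 in parental cells, and a second one at 3.52 in SOX4-/- cells and 3.002 in parental cells, so its direction depends on the cluster. Of the pore subunits they join, KCNJ8 stood at 9.54 in SOX4-/- cells and 9.70 in parental cells, and KCNJ11 at 4.50 in SOX4-/- cells and 5.001 in parental cells. Both pore genes were lower in SOX4-/- cells by less than 2-fold, and KCNJ11 passed the filter only through its parental value.

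**Figure D3:**
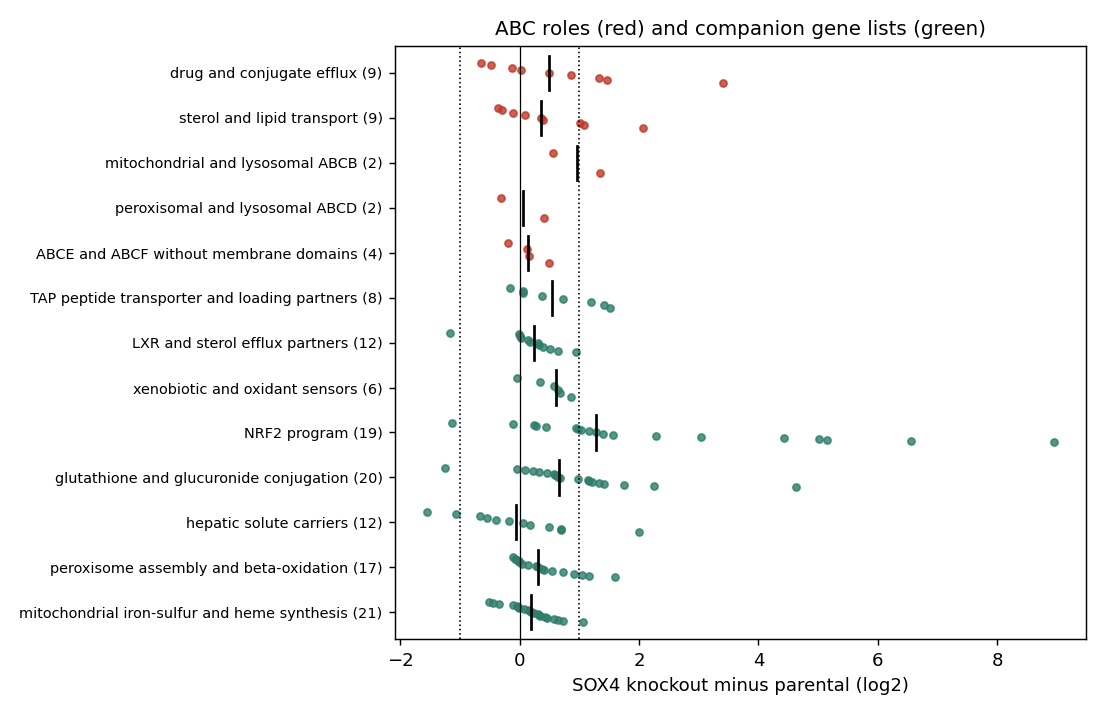
Difference between the SOX4 knockout and parental arrays (x axis, log2) of genes above the level filter, by ABC role (red) and by list of companion genes (green), with the number of genes in brackets. Black bars are medians and dotted lines mark 2-fold; the channel pore list of 2 genes is not drawn, and the medians drawn run from -0.06 for hepatic solute carriers to 1.29 for the NRF2 program, with 0.50 for the ABC exporters of drugs and conjugates.

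Genes that work with these transporters were taken from lists of partners and regulators, whose counts stand beside the 6.50% of all genes above the filter that were higher by 2-fold or more and the 3.64% that were lower by as much. The enzymes that make the glutathione, glucuronide and sulfate conjugates exported by ABCC proteins had 8 of 20 genes above the filter higher by 2-fold or more and 1 lower by 2-fold or more, with a median difference of 0.66. They ran from UGT2B15, a glucuronosyltransferase, at 12.55 in SOX4-/- cells and 7.91 in parental cells, to SULT2A1, a sulfotransferase of steroids and bile acids, at 9.26 in SOX4-/- cells and 10.51 in parental cells. NRF2 program genes, which code for antioxidant and detoxifying enzymes, had 12 of 19 higher by 2-fold or more and 1 lower, from AKR1B10, at 12.67 in SOX4-/- cells and under the filter at 3.71 in parental cells, to SLC7A11 at -1.13. The receptors and factors that sense xenobiotics and oxidants differed less, with 0 of 6 past 2-fold and a median of 0.60, from the nuclear receptor gene PPARA at 0.87 to MAFF, a small MAF protein gene, at -0.04.

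Hepatic solute carriers, a list of uptake carriers that also holds the exporters SLC47A1, SLC51A and SLC51B, went both ways. Of 12 hepatic solute carrier genes above the filter, 1 was higher by 2-fold or more and 2 lower by 2-fold or more, with a median of -0.06. The organic anion carrier gene SLCO2B1 stood at 10.60 in SOX4-/- cells and 8.60 in parental cells, whereas SLCO1B3, of the same family, stood at 8.09 in SOX4-/- cells and 9.65 in parental cells. Partners of sterol efflux had 0 of 12 higher by 2-fold or more and 1 lower, from SREBF1, a regulator of lipid synthesis and a target of the LXR receptors that also control ABCA1, at 0.94 to APOA1, the apolipoprotein that ABCA1 loads, at -1.17. ABCA1 and APOA1 were thus both lower in SOX4-/- cells, ABCA1 by less than 2-fold.

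Partners of the organelle transporters were taken from lists of peroxisomal and mitochondrial genes. Genes of peroxisome assembly and beta-oxidation had 3 of 17 higher by 2-fold or more and none lower, with a median of 0.31, from SCP2, a sterol carrier and thiolase gene, at 1.60 to PEX5, the receptor for peroxisomal matrix proteins, at -0.11. Genes of mitochondrial iron-sulfur and heme synthesis had 1 of 21 higher by 2-fold or more and none lower, with a median of 0.20. The extremes were FECH, which inserts iron into protoporphyrin, at 9.63 in SOX4-/- cells and 8.56 in parental cells, and SLC25A28, a mitochondrial iron carrier, at -0.51. The difference of FECH, 1.07, was 0.93 after removal of the level trend, which is short of 2-fold. The peptide transporter of antigen presentation is an ABC protein whose genes carry other names, and was chosen here after its values were seen. TAP1 stood at 6.35 in SOX4-/- cells and 5.15 in parental cells, and TAP2 at 8.51 in SOX4-/- cells and 7.09 in parental cells, both higher by 2-fold or more. Of the 8 genes of its list, 3 were higher by 2-fold or more and none lower, from the loading chaperone gene TAPBP at 1.52 to the aminopeptidase gene ERAP2 at -0.16.

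The chromosomal surroundings of the 7 higher ABC genes were compared through the 10 nearest protein-coding genes above the filter on each side. Around ABCC3, on chromosome 17, the median of the 20 neighbours was 0.10, and 3 were higher by 2-fold or more and 1 lower. The nearest on either side, CACNA1G and ANKRD40, stood at -0.04 and 0.47, with CACNA1G close to the filter in both lines. The 3 higher ones were SPATA20 at 1.78, PDK2 at 1.68 and ITGA3 at 1.87. ITGA3 passed the filter only through its knockout value, with a parental value of 3.19. ABCA3, on chromosome 16, had a neighbour median of 0.43 with 14 of 20 above zero and 0 past 2-fold. Neighbours of ABCA2, on chromosome 9, were higher in 18 of 20 cases, with 5 higher by 2-fold or more and a median of 0.60. The difference of ABCA2, 1.09, lay above that median and within the range of its neighbours, from -0.16 to 2.55. Whether the genes of this stretch differ for a shared reason was not tested. Of those 5, CLIC3 and ENTPD2 passed the filter only through their knockout values, as ABCA2 did, with parental values of 3.81 and 4.39. The neighbours of ABCB1, on chromosome 7, went both ways, with 6 higher by 2-fold or more and 2 lower, and a median of 0.15. Of the lower ones, SEMA3D passed the filter only through its parental value, 5.87. ABCB6, on chromosome 2, had neighbours with a median of 0.38 and 3 of 20 higher by 2-fold or more. The neighbours of ABCB5, on chromosome 7, and of ABCA7, on chromosome 19, had medians of 0.08 and 0.00 with 1 of 20 higher by 2-fold or more in each, and 1 of those of ABCB5, ETV1 at -1.96, was lower by 2-fold or more. Of all protein-coding genes above the filter, 8.30% were higher by 2-fold or more, which would be fewer than 2 in 20, and 4.30% lower by as much. Of those 11115 genes, 6106 were above zero, against which the counts above zero among neighbours are to be read.

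**Figure D4:**
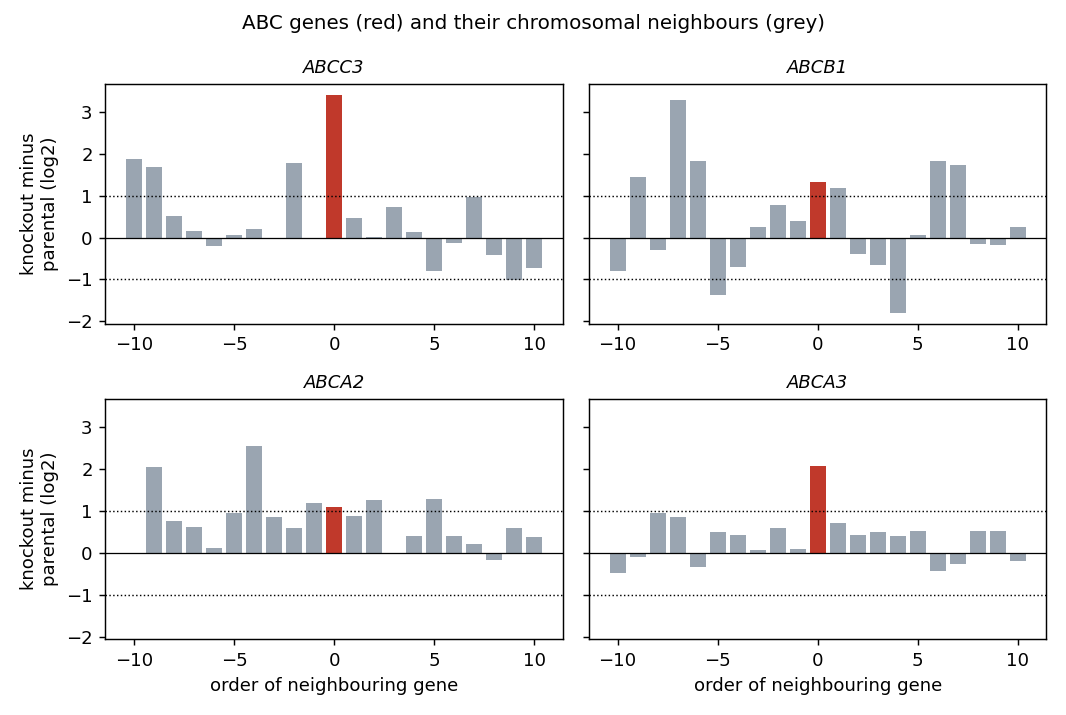
Difference between the SOX4 knockout and parental arrays (y axis, log2) of ABCC3, ABCB1, ABCA2 and ABCA3 (red) and of the 10 nearest protein-coding genes above the level filter on each side, in chromosomal order (grey, x axis). Dotted lines mark 2-fold. The neighbours of ABCA2 are above zero in 18 of 20 cases, and those of ABCC3 in 12 of 20. Among all 11115 protein-coding genes above the filter, 6106 are above zero.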

How the data were processed

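Total RNA of the Hep3B SOX4-/- line and of parental Hep3B cells was hybridised to 1 array each. The submitters' processing notes name RMA and the Transcriptome Analysis Console for the log2 values that the authors deposited, with versions, genome build and array annotation not given in the sources used here. The labels name an array design that the form of the transcript cluster identifiers does not settle. No scanner files or detection calls were used. Of 135750 transcript clusters, 36176 had 1 symbol in the platform annotation, and 1119 had several and were not used. Each gene was represented by the cluster with the highest mean of both arrays, and 5 of the 39 ABC genes had more than 1 cluster. RefSeq (GRCh38.p14) entries matched 38 of the 39 by Entrez identifier with the same symbol and served for names, chromosomes, gene order and promoter windows.

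Genes passed the level filter where the larger of their values was above 4.78. Counting at 2-fold was tried on simulated differences, with the spread of genes below the filter. That standard deviation was 0.30, against 0.70 for genes above it. The choice of clusters was tried on a small made-up table. These trials checked the steps of counting and do not measure how reliable the counts of these arrays are. All ABC genes are named, with SOX4, both genes of the channel pore list and the highest and lowest gene above the filter of each of the 8 other companion lists; further genes named were picked after their values were seen or are marker or neighbouring genes. The members and lists were chosen with earlier results of these data known. The alternatives were quantile normalization, centred arrays, removal of the level trend (running median over 501 genes), other choices of cluster, of filter and of fold. Calculations used Python 3.11.15 with pandas 2.3.3 and numpy 2.4.6.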

Additional observations from a re-analysis of the deposited data

How the results depend on the processing

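The count of 7 ABC genes higher by 2-fold or more was 6 after quantile normalization and after removal of the level trend. ABCA7 fell short there (0.99 and 0.96). The count was 7 with centred arrays and with no level filter. It was also 7 with the mean over a gene's clusters and with the second cluster. The 7 genes have 1 cluster each, so those 2 choices could not change their values. With both arrays held above the filter the count was 4, since the parental values of ABCA3, ABCB5 and ABCA2 lie under it. The count was 8 at 1.5-fold and 2 (ABCC3, and ABCA3 with its parental value under the filter) at 4-fold. The count of genes lower by 2-fold or more was 0 at the deposited scale and 1, ABCC5, at 1.5-fold. At 1.5-fold, 15.5% of all genes were higher and 11.2% lower; at 4-fold, 1.34% and 0.476%. Median differences ran from 0.18 to 0.21 over all ABC genes and from 0.37 to 0.42 over those above the filter. Of 195 values of single ABC genes under the 5 alternatives of scaling or cluster, 193 kept their side of 2-fold. The choice of cluster could change only the 5 ABC genes with more than 1 cluster. For the other ABC genes those values repeat the main difference and could not move. Only ABCC4, ABCC8 and ABCC9, all within 2-fold, changed sign under any of these alternatives. No paired analysis was possible because each line has 1 array, and no replicate could be left out. Precision is limited by the 2 arrays, and signals under the filter were not shown to exceed background.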

Other observations

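ABC pseudogenes were measured beside the genes, with 13 transcript clusters of a single symbol. ABCC6P1 stood at 14.19 in SOX4-/- cells and 13.98 in parental cells, and ABCC6P2 at 14.11 in SOX4-/- cells and 14.18 in parental cells, while ABCC6 itself was not analysed here. ABCD1P3 had the largest difference, at 5.89 in SOX4-/- cells and 5.07 in parental cells, or 0.82, and ABCD1P5 the lowest, at -0.43. None of the 13 was 2-fold or more apart.

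Identical values in both arrays, to all deposited decimals, stood at 1950 of the 135750 transcript clusters. These include the ABC pseudogenes ABCB10P3, at 5.85, and ABCA17P, at 2.62, and 0 of the 39 ABC genes. How identical values arose was not tested.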
